A study of Mus musculus with 366 samples.

Results

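The aortas of F1 mice with a C3H/HeJ mother were compared with those of F1 mice with a C57BL/6J mother, by taking every array whose strain label was C3H/HeJ (8 arrays) or C57BL/6J (6 arrays) in a panel of 101 strains; the other 352 arrays of the series were of other strains. All mice were females of 24 weeks that ate chow for 8 weeks and a Western diet for 16 weeks. Their fathers were C57BL/6J males that carried the human APOE-Leiden and CETP transgenes, heterozygous for the first and homozygous for the second, and F1 mice carrying both were kept. The C3H/HeJ F1 mice therefore had 1 C3H/HeJ and 1 C57BL/6J set of chromosomes, whereas the C57BL/6J F1 mice were C57BL/6J throughout. The transgenes and the diet were common to both groups, so that neither could be read from the comparison. Each array held the RNA of 1 mouse, taken from the arch to the middle of the abdominal aorta after the fat around the vessel had been cleaned away.

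C3H/HeJ and C57BL/6J are a classical pair in the genetics of atherosclerosis: on fat-rich diets C57BL/6J mice form lesions in the wall of the aorta readily and C3H/HeJ mice resist them. The healthy wall is built of contractile smooth muscle between elastic layers, lined by endothelium and surrounded by an adventitia with fibroblasts, sympathetic nerve endings and, in the mouse chest, brown fat. A bulk array reads all of these at once, and fewer cells of a type cannot be told apart from less RNA per cell.

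The values were log2 signals, so that a difference of 1 is a doubling. The medians of the 14 arrays lay between 3.25 and 3.36, and a signal near 3 is therefore no higher than that of a typical probe set on the array. A probe set was called when its limma p, adjusted over all 45141 probe sets, was under 0.05. Smooth muscle actin was abundant (Acta2, 8.88 to 12.76 over the 14 mice). The mean log2 signal of 13 contractile smooth muscle markers was 6.01 to 8.34 in C57BL/6J and 7.99 to 9.42 in C3H/HeJ mice. That of the brown adipocyte markers was above both, at 10.5 to 10.94 in C57BL/6J and 10.58 to 11.13 in C3H/HeJ mice. Squamous epithelium markers lay at 2.58 to 2.86. Hepatocyte markers lay at 4.6 to 4.86 in C3H/HeJ and at 4.79 to 5.5 in C57BL/6J mice. Striated muscle markers ranged from 5.16 to 11.42 among C3H/HeJ mice, with mice 3 and 7 above 11, and from 7.13 to 10.56 among C57BL/6J mice. C57BL/6J mice 1 and 2 stood apart from the other 4 (correlation at most 0.985, against at least 0.992 among mice 3 to 6), and C3H/HeJ mice 3 and 7 resembled each other (0.994). Mice were numbered within a strain only to name them. By the numbers in the labels, C57BL/6J mice 3 to 6 ran from 1022 to 1025, and mice 1 and 2 were 226 and 1001. The C3H/HeJ mice were 550, 551 and 1111 to 1288. What the label numbers stand for is not given, and their part in the values was not tested.

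Between the groups, 3180 probe sets (7.04%) were called, 1253 higher (2.78%) and 1927 lower (4.27%) in C3H/HeJ. Large differences ran the other way: 302 called probe sets were higher by at least 1 log2 unit and 82 were lower by as much. The values of the 2 groups did not overlap for 2.7% of all probe sets. With 1 probe set for each of 17097 genes, 563 genes were higher (3.29%) and 1025 lower (6%), 9.29% in all. Each listed gene below is counted by its probe set with the highest mean signal, and 11 further listed genes were called at another probe set alone. The median difference over these genes was -0.03. Without C57BL/6J mice 1 and 2 the count was 2092 probe sets, 657 higher and 1435 lower, of which 1651 were called the same way in the comparison of all 14 mice. Striated muscle markers lay more than 1 above the panel median of 6.81 in C57BL/6J mice 1 to 5 and C3H/HeJ mice 1, 3 and 7. None of the 14 arrays lay so far above the panel median for hepatocyte or squamous markers (4.85 and 2.69). Leaving out the arrays with high striated muscle signal kept 5 C3H/HeJ mice and 1 C57BL/6J mouse. These are too few to count calls, and the part of striated muscle RNA in the differences cannot be told from that fit.

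The 20 largest positive differences without overlap ran from 1.93 to 4.52. H2-D1, a class I antigen-presenting molecule of the major histocompatibility complex (MHC) on chromosome 17, came first by a probe set that read 7.33 to 7.73 (median 7.54) in C3H/HeJ and 2.85 to 3.25 (median 2.98) in C57BL/6J. All 8 C3H/HeJ mice were far above all 6 C57BL/6J mice, by 4.52 ± 0.08 (SE; adjusted p = 2.11e-14). The probe set of H2-D1 with the highest signal, however, was lower in C3H/HeJ, at 10.05 against 10.79 (difference -0.74 ± 0.14, adjusted p = 0.00467), and of the other 3 probe sets 1 was called, higher by 0.37. The part of sequence differences within the probes in such values was not tested; the difference of 4.52 is that of 1 probe set and no level of the gene is taken from it.

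H2-Ea, the alpha chain of the class II molecule H2-E, is a textbook case: strains of the b haplotype, C57BL/6J among them, carry a promoter deletion and make no such chain. Its values were 5.43 to 7.14 (median 6.53) in C3H/HeJ and 2.85 to 3.3 (median 2.91) in C57BL/6J. The groups were wide apart (3.47 ± 0.23, adjusted p = 5.06e-07), and a second probe set of the gene was higher too, by 1.31. Among 12 measured class II genes, H2-Ob, which encodes a chain of the H2-O accessory molecule, was the other called gene (all genes: 3.29% higher). It was higher by 0.65 ± 0.18 (adjusted p = 0.0397), and its call was lost in 7 of 14 comparisons that left out 1 mouse. The list as a whole had a median difference of -0.06. Of 9 class I and peptide loading genes 2 were called at their brightest probe set, both lower (all genes: 6%). They were H2-D1 and H2-K1, the other classical class I chain (H2-K1: -0.62 ± 0.12, adjusted p = 0.00613). The other probe sets of H2-K1 gave -0.07, 0.12 and -0.18, all without a call.

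Gchfr encodes the feedback regulator of GTP cyclohydrolase 1, the first enzyme in the synthesis of tetrahydrobiopterin, a cofactor of nitric oxide synthases. It read 7.66 to 8.53 (median 7.95) in C3H/HeJ and 3.47 to 5.65 (median 3.99) in C57BL/6J, a difference of 3.86 ± 0.27 (adjusted p = 1.05e-06). No C57BL/6J mouse reached the lowest C3H/HeJ value. Gch1, the regulated enzyme itself, was higher by 0.99 ± 0.25 (adjusted p = 0.0271), and Ddah1, which degrades an inhibitor of nitric oxide synthases, by 1.56 ± 0.42 (adjusted p = 0.0365). Those 2 genes had overlapping groups and were lowest, among the C3H/HeJ mice, in mice 2 and 5 (Ddah1 3.98 and 3.82, against at least 5.20 in the other 6; Gch1 4.59 and 5.07, against at least 5.6). The calls of Gch1 and Ddah1 were lost in 6 and in 11 of the 14 comparisons that left out 1 mouse, and neither was called without C57BL/6J mice 1 and 2. These 3 were the genes called among 14 of the nitric oxide and cGMP list, all higher (all genes: 3.29%). Nos3, the endothelial nitric oxide synthase, differed by 0.03 ± 0.16 and was not called.

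Hbegf, a growth factor of the EGF family for smooth muscle cells and an activator of the EGF receptor, read 7.72 to 8.37 (median 7.91) in C3H/HeJ and 3.03 to 4.75 (median 4.32) in C57BL/6J. All C3H/HeJ values were higher, by 3.77 ± 0.22 (adjusted p = 1.26e-07), and the second probe set gave 2.54. Gbp2b, an interferon-induced guanylate-binding protein, read 5.99 to 6.56 in C3H/HeJ and 2.45 to 3.57 in C57BL/6J (3.46 ± 0.15, adjusted p = 4.30e-09). Of 11 other interferon-induced GTPases Iigp1 was called higher at its brightest probe set (0.67), against 3.29% of all genes. Gbp7 was called at its second one without overlap (0.56 ± 0.11, limma adjusted p = 0.00727), but not at its brightest (0.57, limma adjusted p = 0.0593). Of 14 type I interferon-stimulated genes none was called by limma, with a median difference of 0.42, 9 genes at an unadjusted p under 0.05 and the lowest adjusted p at 0.054 for Ifit3. With array weights, or in the 6 C3H/HeJ and 5 C57BL/6J mice whose label number was 1001 or above, 4 of the 14 were called higher, and 3 were among probe sets above the median. In that order these fits called 1711, 1207 and 1271 probe sets higher in all. C3H/HeJ ranked 3rd of 101 strains for the mean signal of this list and C57BL/6J 30th. Against A/J, BALB/cJ and DBA/2J, 9 of the 14 genes were called higher in C3H/HeJ (median difference 0.85). That comparison called 1908 of all 45141 probe sets higher.

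Ptprf, a receptor tyrosine phosphatase, was higher by 2.98 ± 0.26 (adjusted p = 6.79e-06) with both of its other probe sets called the same way. Pdxdc1, a pyridoxal-dependent decarboxylase domain protein, was higher by 3.82 at one probe set (6.51 ± 0.29 against 2.69 ± 0.05, SD, n = 8 and 6) and lower by 1.11 and by 0.43 at the other two. All 3 were called. Tspan18, a tetraspanin, likewise had 1 probe set higher by 2.67 and 1 lower by 0.94. Over the array, 15 of the 326 genes with 2 or more called probe sets had calls of both signs. Abhd1 (2.48), Olig1 (2.02, an oligodendrocyte transcription factor), Cuedc1 (1.93, and 0.53 without a call at its brightest probe set) and Gabbr1 (2.11, a GABA B receptor subunit) were also called without overlap.

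**Figure D1:**
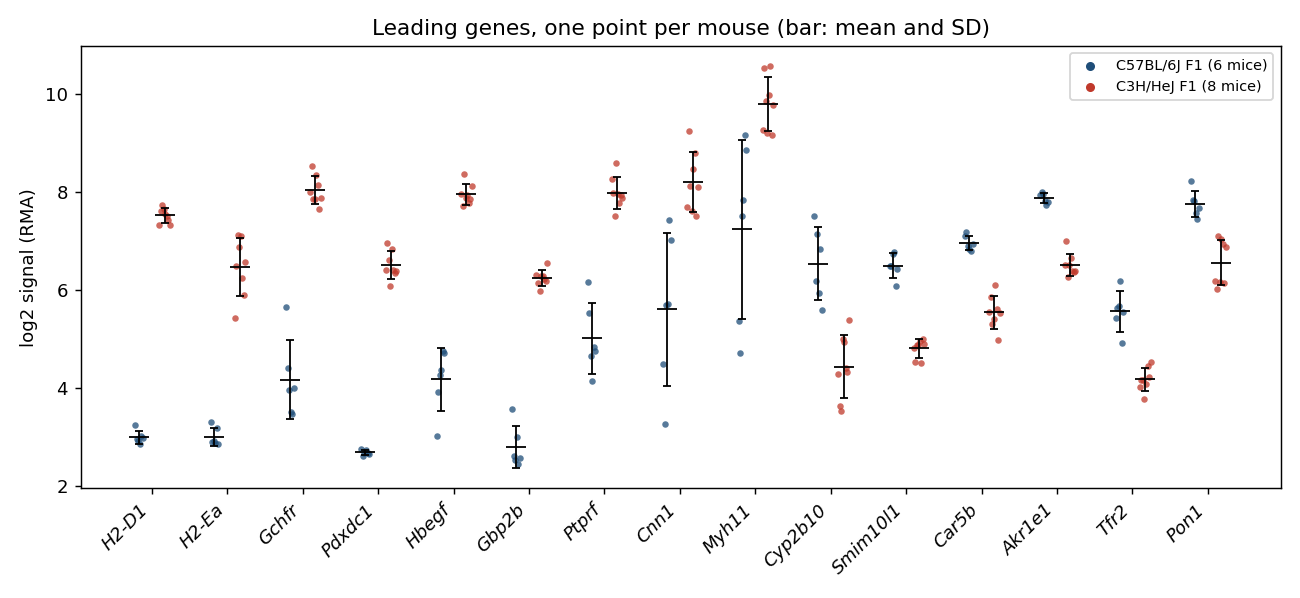
Log2 signal (vertical axis) of 15 leading genes (horizontal axis) in each C57BL/6J F1 mouse (blue, n = 6) and each C3H/HeJ F1 mouse (red, n = 8), with the mean and SD as black bars. H2-D1, H2-Ea, Gchfr, Pdxdc1, Hbegf and Gbp2b have means more than 3 log2 units apart, whereas Cnn1 and Myh11 spread widely among the C57BL/6J mice. H2-D1 is drawn from the probe set with the 4.52 difference.

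The largest differences on the lower side were smaller, running from -1.18 to -2.10 for the 20 leading genes without overlap. Cyp2b10, a cytochrome P450 that is induced through the nuclear receptor CAR, was the largest of these. It read 3.53 to 5.39 (median 4.37) in C3H/HeJ and 5.6 to 7.52 (median 6.51) in C57BL/6J, and its 3 probe sets fell by 1.95 to 2.10. Akr1e1, an aldo-keto reductase, was lower by 1.36 ± 0.10 (6.27 to 7.01 against 7.74 to 8.01, adjusted p = 1.30e-06), and Car5b, a mitochondrial carbonic anhydrase on the X chromosome, by 1.42 ± 0.14 (adjusted p = 2.47e-05). Hpgd, which inactivates prostaglandins (-1.27 ± 0.18, adjusted p = 0.000697), Mgst2, a microsomal glutathione transferase that can make leukotriene C4 (-1.22 ± 0.17, adjusted p = 0.000615), and Pon1, the paraoxonase of high-density lipoprotein (-1.20 ± 0.19, adjusted p = 0.00189), were lower in every C3H/HeJ mouse than in any C57BL/6J mouse. The same held for Apoc3, an apolipoprotein that restrains the clearance of triglyceride-rich particles (-1.19), and Cd163, the haemoglobin scavenger receptor of tissue macrophages (-1.19). It held too for Tfr2 (-1.39, transferrin receptor 2), E2f6 (-1.39, a repressive E2F factor), Vnn3 (-1.33, a vanin), Eci3 (-1.32, a peroxisomal enoyl-CoA isomerase), Calr3 (-1.29, a calreticulin), Ccl27a (-1.26, a chemokine), Smim10l1 (-1.69) and 4930481A15Rik (-1.66). Each value is that of 1 probe set, and other sets differed for some: the brightest set of E2f6 gave 0.23 and that of Smim10l1 -0.29, both without a call, and the other sets of Calr3 gave -0.36 and 0.01, also without a call. The other 4 of the 20 were C920006O11Rik and 2610507I01Rik, called lower at both of their probe sets, and Zfp871 and Snx6, called at their dimmest set only. Nppa, the atrial natriuretic peptide, was singled out after its values were seen. It read 3.11 to 6.88 in C3H/HeJ and 6.73 to 8.00 in C57BL/6J, and was lower by 2.82 ± 0.52 (adjusted p = 0.00473), with overlap; the part of heart tissue in the samples was not tested.

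Contractile smooth muscle genes were higher in C3H/HeJ as a group. Of 13 measured markers 10 were called, all higher (all genes: 3.29%), and all 13 differences were positive, with a median of 1.65 against -0.03 over all genes. Myh11, the smooth muscle myosin heavy chain, read 9.17 to 10.57 (median 9.83) in C3H/HeJ and 4.71 to 9.16 (median 7.68) in C57BL/6J. The groups did not overlap, but C57BL/6J mice 1 and 2 (5.37 and 4.71) were far below mice 5 and 6 (9.16 and 8.86). Its difference was 2.55 ± 0.60 (adjusted p = 0.0194). Cnn1, the calponin of smooth muscle, differed by 2.59 ± 0.53 (adjusted p = 0.00909). Acta2 (1.69), Myl9 (1.81, the regulatory myosin light chain), Mylk (1.54, the kinase that phosphorylates it) and Tpm2 (1.65, a tropomyosin) were called as well, as were Synpo2 (1.84), Lmod1 (1.5), Actg2 (1.55) and Itga8 (2.08). Cald1, caldesmon, was called higher at 3 other probe sets (0.88 to 1.22) but not at its brightest (0.67). Genes of this and the following lists beyond the 4 with the smallest p were named after their values were seen.

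The mean log2 signal of the contractile list separated the groups less cleanly than Myh11 did. It lay between 7.99 and 9.42 in C3H/HeJ and between 6.01 and 8.34 in C57BL/6J, whose mouse 5 was above the C3H/HeJ mice 1 and 4. Among the 101 strain means C3H/HeJ was 33rd from the top and C57BL/6J 85th. Without C57BL/6J mice 1 and 2, 5 of the 13 genes were called, all higher, and without C3H/HeJ mice 3 and 7 it was 9. Of all 45141 probe sets these fits called 657 and 813 higher. Ramp1, the partner of the calcitonin gene-related peptide receptor (2.36), Itga9, an integrin (2.22), Map1b, a microtubule-associated protein (2.73), Ints6, a subunit of the Integrator complex (2.63 at 1 of 4 probe sets, the others giving 0.21, -0.09 and 0.13 without a call), and Ncam1, the neural cell adhesion molecule (2.24), were among the 20 leading genes.

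Components of the elastic layers were partly higher. Of 12 elastic fibre genes 4 were called, all higher (all genes: 3.29%): Eln, elastin itself (5.34 to 6.80 in C57BL/6J, 6.53 to 8.73 in C3H/HeJ; 1.33 ± 0.34, adjusted p = 0.0264), Fbln5 (0.62), a fibulin needed for fibre assembly, Mfap4 (1.08) and Ltbp1 (1.01). Fbln1 was lower at a dimmer probe set (-0.33). The list's median difference was 0.09, and none of its 12 genes was called without C57BL/6J mice 1 and 2. Col18a1, a basement membrane collagen from which endostatin is released, was the collagen called of 13 (1.38 ± 0.31, adjusted p = 0.0136; all genes: 3.29% higher). All 13 collagen differences were positive, with a median of 0.37 and 8 genes at an unadjusted p under 0.05 by limma. Against A/J, BALB/cJ and DBA/2J, 6 of the 13 were called higher. Matrix turnover genes moved in both directions. Timp3, an inhibitor of metalloproteinases, was higher (9.88 to 10.31 against 8.55 to 9.68; 0.91 ± 0.17, adjusted p = 0.00488), and Mmp9, gelatinase B, was lower (3.78 to 4.28 against 4.28 to 5.36; -0.72 ± 0.13, adjusted p = 0.00479), neither with overlap. Adamts5, an aggrecanase, was lower by 0.53.

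Endothelial markers had positive differences in 14 of 14 genes with a median of 0.56, but 3 were called (all genes: 3.29% higher): Esam (0.58) and Egfl7 (0.70), an adhesion molecule and a secreted matrix factor of endothelial cells, and Eng (0.69), a TGF-beta coreceptor. None was called without C57BL/6J mice 1 and 2, whose endothelial signals (6.39 and 6.11) were below those of all other mice (6.89 or more). Ece1, the endothelin-converting enzyme, was higher by 0.44 ± 0.08 (adjusted p = 0.00571).

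**Figure D2:**
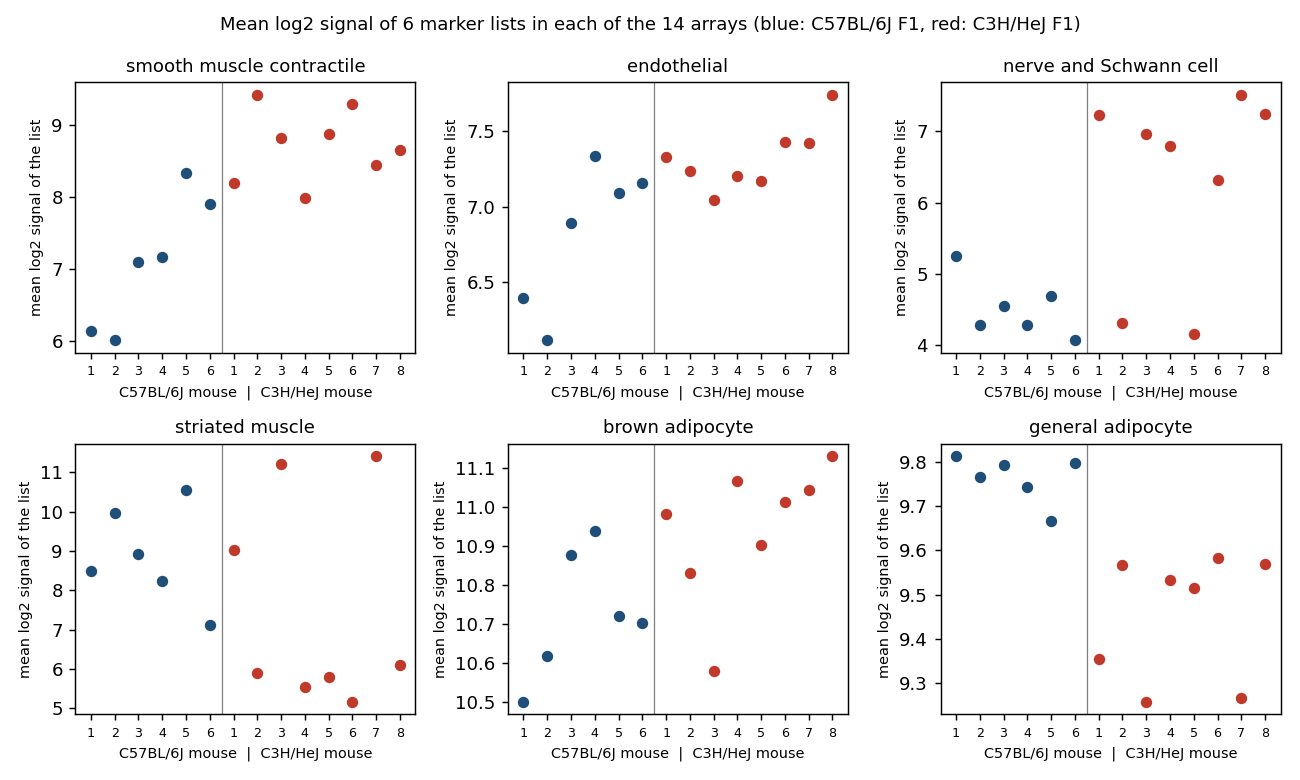
Mean log2 signal of 6 marker lists (1 panel each, vertical axes not starting at 0) in each mouse (horizontal axis: C57BL/6J mice 1 to 6 in blue, C3H/HeJ mice 1 to 8 in red). C57BL/6J mice 1 and 2 are lowest for smooth muscle and endothelium, C3H/HeJ mice 2 and 5 are below the other 6 for nerve, and C3H/HeJ mice 3 and 7 are highest for striated muscle.

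Genes of sympathetic neurons were high in 6 of the 8 C3H/HeJ mice. Th and Dbh, enzymes in the synthesis of dopamine and noradrenaline, read 5.61 or more and 5.80 or more in those 6 mice. In C3H/HeJ mice 2 and 5 they read 3.08 and 2.55 (Th) and 3.36 and 3.48 (Dbh), within the range of the C57BL/6J mice (2.46 to 3.67 and 2.97 to 4.68). Snap25, a protein of synaptic vesicle release, showed the same mice high (6.78 to 8.24) and low (2.94 and 2.57). The groups thus overlapped, and the differences were 2.66 ± 0.70 for Th, 2.32 ± 0.62 for Dbh and 3.22 ± 0.86 for Snap25 (adjusted p = 0.0327, 0.0361 and 0.0351). These 3 of 7 measured nerve and Schwann cell genes were called higher (all genes: 3.29%), and Npy, the neuropeptide of the same neurons (3.10 to 9.74), was not (adjusted p = 0.0651). All 3 calls were lost without C57BL/6J mice 1 and 2 and also without C3H/HeJ mice 3 and 7. Whether ganglia or nerve trunks had been kept with some of the aortas was not tested. Ddah1 and Gch1, described above, were low in the same C3H/HeJ mice 2 and 5.

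Clock genes shifted in both directions. The circadian clock is a loop in which CLOCK (or NPAS2) and BMAL1, the product of Arntl, drive the Per, Cry, Nr1d and Dbp genes through E-boxes, and the PER, CRY and NR1D proteins repress the loop in turn. Of 13 measured genes 9 were called, 5 higher and 4 lower, against 9.29% among all genes. The higher ones were Dbp (6.40 to 8.24, median 7.93, in C3H/HeJ; 4.80 to 6.96, median 5.75, in C57BL/6J), an output gene that differed by 2.00 ± 0.33 (adjusted p = 0.00215), and Ciart (1.22), Per2 (1.13), Nr1d2 (0.72) and Per3 (0.71). The lower ones were the activators Arntl (3.60 to 5.19, median 4.02, against 4.76 to 5.86, median 5.49; -1.30 ± 0.23, adjusted p = 0.00364), Npas2 (-1.02) and Clock (-0.44), and Cry1 (-0.64). Per1 (0.55), Cry2 (0.30), Tef (0.55) and Hlf (0.18) were not called, and the groups overlapped in each of the 9 called genes. C3H/HeJ mouse 4 was the nearest to C57BL/6J: it had the lowest Dbp, Ciart, Per2, Nr1d2 and Per3 (6.40, 3.09, 4.06, 9.39 and 6.27) and the highest Clock (7.61) of its group.

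The count was close to this without the mice that stood apart. Without C57BL/6J mice 1 and 2, 6 clock genes were called higher and 4 lower (of all 45141 probe sets: 657 and 1435). That comparison rested on C57BL/6J mice 3 to 6, whose label numbers ran in sequence. Without C3H/HeJ mice 3 and 7, 4 clock genes were called higher and 4 lower (of all probe sets: 813 and 1391). C57BL/6J was the strain at the end of the range: its mean was the highest of the 101 strains for Arntl and Cry1 and 94th for Dbp, whereas C3H/HeJ was 69th, 48th and 27th. Against CBA/J no clock gene was called, nor against the mean of A/J, BALB/cJ and DBA/2J. The mice were kept on a regular light and dark cycle, and they were fasted in the morning, from lights-on, before they were killed. The hour at which each mouse was dissected is not given in the sources used here, and its part in the clock values was not tested.

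**Figure D3:**
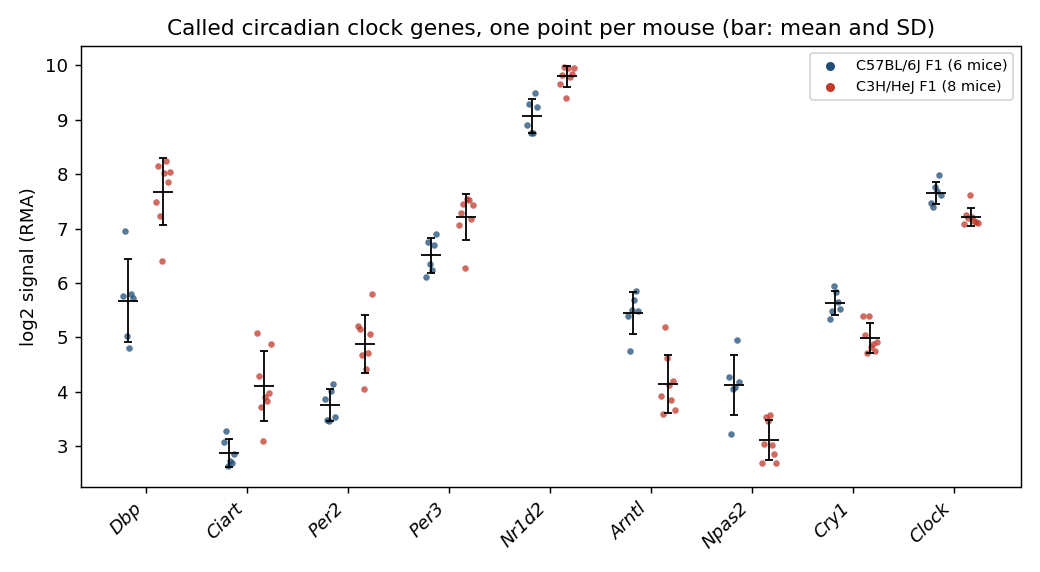
Log2 signal (vertical axis) of the 9 called clock genes (horizontal axis) in each C57BL/6J F1 (blue, n = 6) and C3H/HeJ F1 mouse (red, n = 8), with mean and SD. Dbp, Ciart, Per2, Per3 and Nr1d2 are higher and Arntl, Npas2, Cry1 and Clock lower in C3H/HeJ, with single mice overlapping.

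The promoters of one riser and one faller are shown because both carry the perfect E-box CACGTG, which CLOCK and BMAL1 bind. The stretches are the 250 bases before the RefSeq start of each gene (GRCm38.p6, minus strand, 5′ to 3′), with every CACGTG in capitals (the motif reads alike on both strands): Ciart at chr3:95882229-95882478, with 3 copies, and Cry1 at chr10:85185055-85185304, with 1.
Ciart: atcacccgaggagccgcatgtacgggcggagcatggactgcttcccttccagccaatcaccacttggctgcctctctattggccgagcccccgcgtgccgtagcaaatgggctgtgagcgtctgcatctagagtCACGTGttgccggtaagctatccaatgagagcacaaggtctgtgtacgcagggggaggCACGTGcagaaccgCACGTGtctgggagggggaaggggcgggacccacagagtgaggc
Cry1: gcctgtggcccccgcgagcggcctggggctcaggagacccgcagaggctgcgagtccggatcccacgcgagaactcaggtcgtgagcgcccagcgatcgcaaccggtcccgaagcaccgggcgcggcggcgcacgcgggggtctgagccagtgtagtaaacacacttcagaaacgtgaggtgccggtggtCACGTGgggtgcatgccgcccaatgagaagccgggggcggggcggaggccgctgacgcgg
Of the 14 listed clock genes 13 were matched to a promoter (250 bases before to 50 after the start). The motif was held by 4 of them (Ciart, Cry1, Per1 and Tef), against 7.15% of all 32851 promoters. The clock genes were counted by gene, where any 1 promoter with the motif sufficed, and the 7.15% by promoter. Per1 and Tef were not called, and a match of letters is a description only.

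Of 17 measured genes of cholesterol biosynthesis 4 were called, all lower (all genes: 6%), and 16 of the 17 differences were negative with a median of -0.37. Idi1, isopentenyl diphosphate isomerase, read 7.23 to 8.44 in C3H/HeJ and 8.33 to 8.87 in C57BL/6J (-0.76 ± 0.16, adjusted p = 0.0111). Tm7sf2, a sterol reductase, was lower in all C3H/HeJ mice (-0.71 ± 0.10, adjusted p = 0.000835), and Lss, lanosterol synthase (-0.71), and Nsdhl (-0.54) were called with overlap. Of 13 efflux and uptake genes 3 were lower (all genes: 6%; median difference -0.07): Npc1, the cholesterol exporter of the lysosome (-0.53 ± 0.13, adjusted p = 0.0255), its partner Npc2 (-0.27) and Nr1h3, the oxysterol receptor LXR alpha (-0.30); none of the 3 calls stood without C57BL/6J mice 1 and 2. Of 16 fatty acid oxidation genes 4 were lower (all genes: 6%) and 1 higher (3.29%), with a median difference of -0.09. Acads, the short-chain acyl-CoA dehydrogenase (-0.42), and Decr1, a dienoyl-CoA reductase (-0.20), were lower without overlap, Cpt2 (-0.28) and Eci2 (-0.23) with overlap, Acadl was lower at a dimmer probe set (-0.59), and Cpt1a, the liver form of the carnitine transferase that admits fatty acids to mitochondria, was higher (0.50). By limma none of the 20 oxidative phosphorylation genes was called at its brightest probe set (Ndufb8 was at another, -0.58), nor any of 10 brown adipocyte markers (6 and 3 at an unadjusted p under 0.05). Retn, the adipokine resistin, was lower in every C3H/HeJ mouse (8.57 to 9.71 against 9.72 to 10.55; -1.03 ± 0.19, adjusted p = 0.00465). The mean signal of its 5-gene general adipocyte list was 9.26 to 9.58 against 9.67 to 9.81, a difference to which Retn contributed most; the other 4 genes, with differences of -0.39 to 0.15, were not called.

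Inflammatory and lesion genes gave few calls (all genes: 3.29% higher and 6% lower). None of 14 macrophage markers was called by limma (median difference -0.36, 3 of 14 positive), none of 8 T cell markers and none of 11 leukocyte adhesion genes. Before adjustment 4 macrophage, 0 T cell and 1 adhesion gene had a p under 0.05. Of 13 foam cell genes Cd9, a tetraspanin of many cell types, was called (0.94 ± 0.17, adjusted p = 0.00364). Jchain, the joining chain of secreted IgM and IgA, was the called gene of 8 B cell markers (5.98 to 9.10 in C3H/HeJ, 4.43 to 7.16 in C57BL/6J; 2.52 ± 0.59, adjusted p = 0.0187). Cxcl13, the chemokine that draws B cells, was higher at both probe sets, without overlap at the dimmer one (6.08 to 8.18 against 3.73 to 5.79; 2.20 ± 0.38, adjusted p = 0.00301) and with overlap at the brighter one (2.11, adjusted p = 0.0135). Jchain was not called without C57BL/6J mice 1 and 2 (adjusted p = 0.071). Cxcl10, an interferon-induced chemokine, was higher by 0.70, at a mean of 3.66 against 2.96. It was the called gene of 18 listed chemokine and cytokine genes, which did not include Cxcl13 (median difference -0.03, 7 of 18 positive). Ifi203 (0.85, higher), a DNA sensor, was the called gene of 5 of the Ifi200 family (median difference -0.04, 1 of 5 positive). C4b, complement component 4 (-0.79 ± 0.16, adjusted p = 0.00817), and C1s1 (-0.38) were the 2 called of 13 complement genes, both lower (all genes: 6%). The call of C1s1 was lost in 7 of 14 comparisons that left out 1 mouse. Jun, a subunit of the AP-1 factor, was higher without overlap (0.99 ± 0.21, adjusted p = 0.00999); of 13 immediate-early and heat shock genes Atf3 (1.33) was also higher and Hsph1 (-0.52) lower. Gpx1, the main cytosolic glutathione peroxidase, was lower without overlap by 0.27, and Gpx3 was lower by 0.48. With Glo1 these were the called genes of 19 antioxidant genes, 1 higher and 2 lower (all genes: 3.29% and 6%).

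The remaining lists had 1 call or none (all genes: 9.29% called): Cma1, a mast cell chymase, of 9 neutrophil and mast cell genes (-1.04), Rela, an NF-kappaB subunit, of 17 TLR4 signalling genes (0.32), Dpt of 12 fibroblast genes (-0.53) and Apoa2 of 10 hepatocyte genes. In that order these 4 lists had 1, 6, 2 and 0 positive differences, with medians of -0.18, -0.14, -0.26 and -0.27. They held 2, 9, 7 and 3 genes at an unadjusted p under 0.05 by limma. By limma, at the brightest probe set of each gene, none was called among 13 TGF-beta, 10 cartilage and calcification, 13 cell cycle, 12 lysosome, 6 white adipocyte, 13 striated muscle, 4 erythroid and 9 squamous genes; at an unadjusted p under 0.05 these lists had, in that order, 5, 2, 0, 3, 2, 0, 0 and 0. Other probe sets were called for Smad4, the common mediator of TGF-beta signals (-0.52 ± 0.07, adjusted p = 0.000361, against 0.21 at the brightest set), Hba-a1, a haemoglobin alpha chain (2.43 ± 0.35, adjusted p = 0.000794, against -0.11), Ctsl, a lysosomal protease (-0.27, against 0.11), and Irak1 of the TLR4 list (-0.26). The striated muscle list had a median difference of -1.18 all the same, with the wide spread among mice given above.

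**Figure D4:**
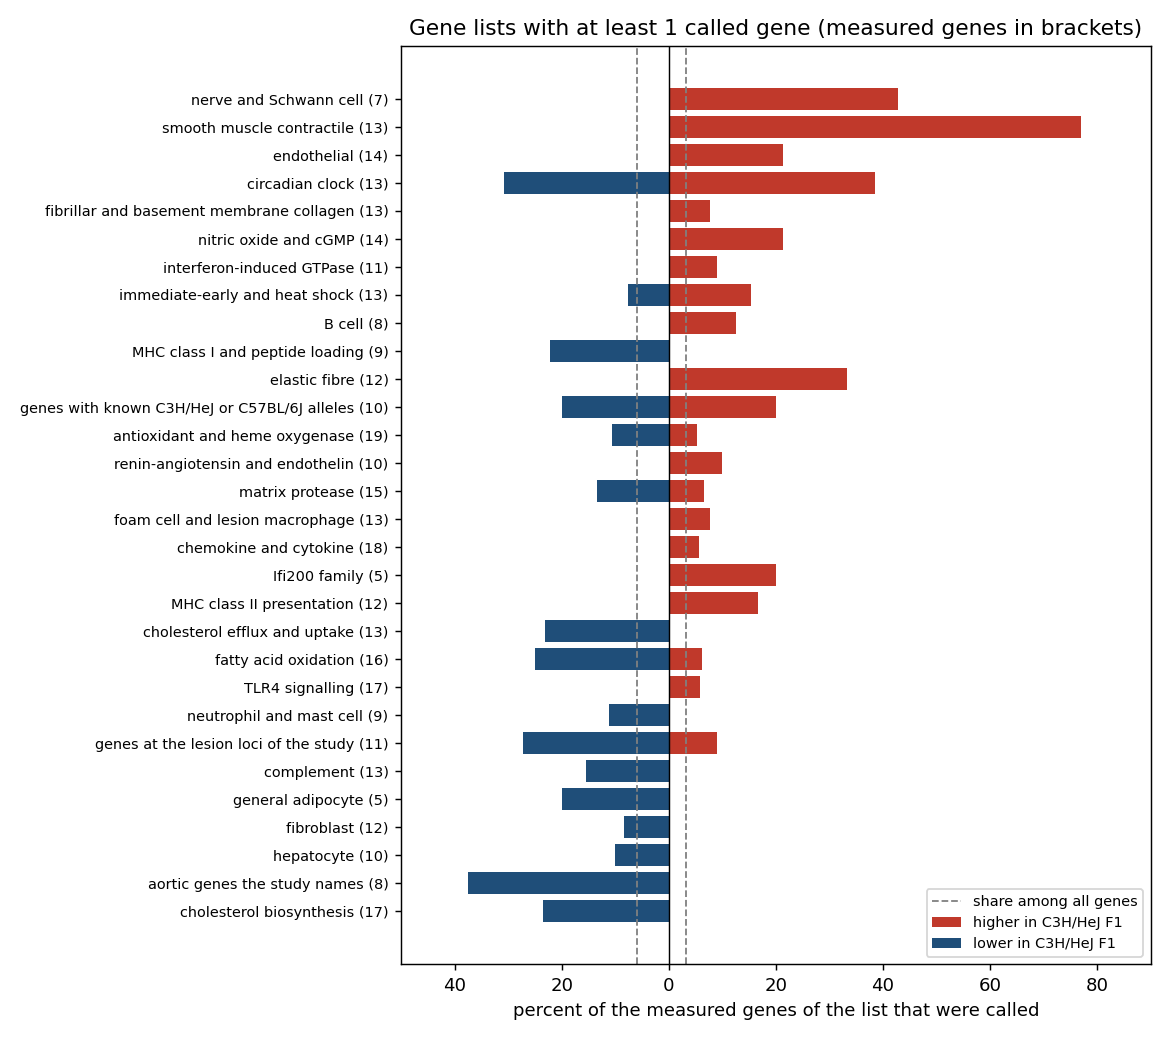
Percent of the measured genes of each list (number in brackets) that were called higher (red, to the right) or lower (blue, to the left) in C3H/HeJ F1, for lists with at least 1 call, ordered by median difference. Dashed lines mark the shares among all genes, 3.29% higher and 6% lower; contractile smooth muscle reaches 10 of 13 genes.

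Genes with known variants in one of the strains were read separately. Tlr4, whose C3H/HeJ allele encodes a receptor that does not respond to lipopolysaccharide, read 5.01 to 5.53 in C3H/HeJ and 5.37 to 5.83 in C57BL/6J. The difference of -0.29 ± 0.09 was not called (adjusted p = 0.0736), and the other probe set also gave -0.29 without a call. Apoa2, an apolipoprotein of high-density lipoprotein, was lower without overlap (3.23 to 3.66 against 4.03 to 5.79; -1.13 ± 0.23, adjusted p = 0.00769), at levels close to the array median. Glo1, glyoxalase 1, whose locus is duplicated in some inbred strains, was higher in all C3H/HeJ mice (8.85 to 9.15 against 8.27 to 8.63), by 0.51 ± 0.07 (adjusted p = 0.00034). Entpd4, a Golgi nucleotidase, was lower by 0.25 without overlap. Nnt, the mitochondrial transhydrogenase of which C57BL/6J carries a deletion, differed by 0.55 ± 0.54 (adjusted p = 0.644) and was high in C3H/HeJ mice 3 and 7 alone (8.60 and 8.39, against at most 6.53 in all others). Those were the 2 mice with the highest striated muscle signal. Pde6b, Hmox1, Tnfsf4 and Ifi202b differed by 0.08, 0.13, 0.01 and -0.04 and were not called.

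Of the 12 genes that the study placed at its lesion loci, 11 were measured and 4 were called, 1 higher and 3 lower (all genes: 9.29%); this list came from the same series and is no independent evidence. Nnmt, nicotinamide N-methyltransferase, read 6.00 to 7.19 in C3H/HeJ and 7.14 to 7.98 in C57BL/6J and was lower by 1.08 ± 0.19 (adjusted p = 0.00365). Of the other chromosome 9 genes, 1110032A03Rik (-0.60 ± 0.07, adjusted p = 0.00012, no overlap) and Bco2, a carotenoid dioxygenase (-0.45), were lower too, while 2310030G06Rik (0.42) was not called. Alg9, a mannosyltransferase, was not called at its brighter probe set (-0.18) and was lower without overlap at the dimmer one (-1.11 ± 0.18, adjusted p = 0.00215). Of 8 measured aortic genes that the study names, the called ones were Nnmt, Bco2 and 1110032A03Rik, all lower (all genes: 6%). Nectin2 was lower at another probe set (-0.61). Dtwd1 on chromosome 2 was higher by 0.43 ± 0.09 (adjusted p = 0.0117). Abcb8 (-0.34, adjusted p = 0.0504), Cdk5 (-0.20), Rheb (0.15) and Bub1 (-0.01) were not called, and Nos3 is given above. Called genes were not gathered on 1 chromosome: between 7.92% (chromosome 19) and 11.9% (chromosome 13) of the measured genes of each chromosome were called.

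Other strains of the panel show where each of the 2 groups stood. The F1 of CBA/J, a strain of common origin with C3H/HeJ, differed from C3H/HeJ F1 at 334 probe sets (0.74%), 131 higher and 203 lower in C3H/HeJ. With 4 CBA/J mice this comparison had fewer arrays than the one with C57BL/6J, and its count ran from 134 (without CBA/J mouse 4) to 425 (without CBA/J mouse 1). Against the mean of A/J (n = 3), BALB/cJ (n = 4) and DBA/2J (n = 5), 2804 probe sets (6.21%) were called, 1908 higher and 896 lower; with each array centred on its median the split was 1345 and 1594. All 3 comparisons share the C3H/HeJ arrays. Of the 20 leading higher genes 7 were called higher against CBA/J and 12 against the 3 strains, 6 in both: Hbegf, Gbp2b, Map1b, Tspan18, Ints6 and Itga9. Of the 20 leading lower genes 6 were called lower against CBA/J and 11 against the 3 strains, 6 in both: Pon1, Ccl27a, Hpgd, Akr1e1, Tfr2 and Smim10l1.

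Hbegf stood out here. Its C3H/HeJ mean was the highest of the 101 strains, 3.68 above CBA/J (adjusted p = 2.74e-09) and 3.33 above the 3 strains (adjusted p = 9.05e-14). Gbp2b was 3.43 above CBA/J and 1.24 above the 3 strains, and 12th of 101. Vnn3 and Hpgd had their lowest strain mean in C3H/HeJ, and Hpgd was 0.82 below CBA/J (adjusted p = 0.0241). Gchfr was on the contrary lower in C3H/HeJ than in CBA/J by 0.83 (adjusted p = 0.0182) and differed by -0.01 from the 3 strains, where C57BL/6J was 65th. Car5b was highest of all strains in C57BL/6J, and C3H/HeJ differed from the 3 strains by -0.01. The contractile genes were not called against either set (median difference 0.21 against the 3 strains, none of 13 called).

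The 4 recombinant inbred strains made from C57BL/6 and C3H parents (BXH6/TyJ, BXH8/TyJ and BXH22/KccJ with 4 arrays each, BXH19/TyJ with 3) were not used in the rule and show the leading genes again. Each BXH strain carries at any gene either the C57BL/6 or the C3H allele. For H2-D1 (leading probe set) and H2-Ea the BXH6/TyJ mean matched C3H/HeJ (7.57 and 7.04), and the other 3 matched C57BL/6J (2.84 to 3.32). Gchfr was high in BXH8/TyJ and BXH22/KccJ (8.82 and 8.91) and low in BXH6/TyJ and BXH19/TyJ (3.84 and 4.13). Ptprf was high in BXH6/TyJ and BXH19/TyJ (7.63 and 7.43) and low in the others (4.90 and 5.04), and Pdxdc1 was low in BXH8/TyJ alone (2.71, against 6.41 to 6.81). Akr1e1 split the same way as Ptprf, with BXH6/TyJ and BXH19/TyJ at the C3H/HeJ level (6.65 and 6.59) and the others at 7.65 and 7.66.

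Hbegf, Gbp2b and Gabbr1 behaved differently. All 4 BXH means of Hbegf lay between 4.11 and 4.99, and all 4 of Gbp2b between 2.52 and 3.01, close to C57BL/6J and far from the C3H/HeJ means of 7.95 and 6.25. The CBA/J means of Hbegf and Gbp2b were 4.28 and 2.83. For Gabbr1 the BXH means lay at 0.17, 0.14, -0.03 and -0.03 of the parental distance, counted from C57BL/6J. Over the 40 leading genes and 4 strains, 52 of 160 means lay within 25% of the parental distance from C57BL/6J or beyond it, 59 did so on the C3H/HeJ side and 49 lay between, and 14 genes had all 4 means near a parent. These are counts without a test, and no genotypes of the strains were used.

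**Figure D5:**
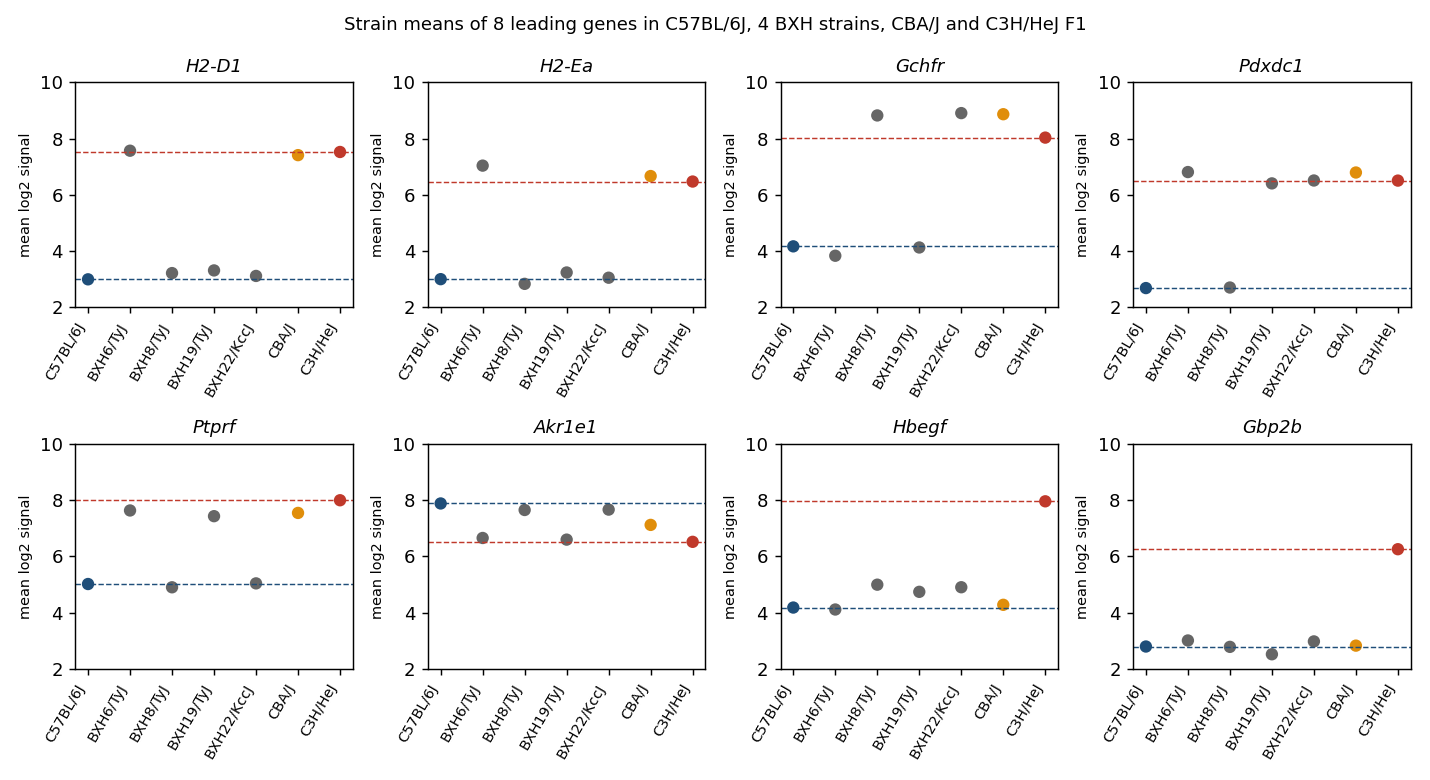
Mean log2 signal (vertical axis) of 8 leading genes in the F1 of C57BL/6J (blue), 4 BXH strains (grey), CBA/J (orange) and C3H/HeJ (red); dashed lines mark the 2 parents. BXH means of H2-D1, H2-Ea, Gchfr, Pdxdc1, Ptprf and Akr1e1 sit near one parent or the other, while those of Hbegf and Gbp2b all sit near C57BL/6J.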

How the data were processed

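The authors processed the scanned arrays with GCOS and RMA per the labels, with no version given, and deposited log2 signal values of 45141 probe sets for 366 arrays; all columns were matched to samples by their labels, and none was left unmapped. The labels name the array HT_MG-430A, whereas the study names HT-MG_430 PM, and the probe set names end in _PM. The 8 C3H/HeJ and 6 C57BL/6J arrays were fitted with limma 3.58.1 in R 4.3.3 (lmFit and eBayes, two-sided), with Benjamini-Hochberg adjustment over all probe sets and a threshold of 0.05. Replicates are single mice; the labels give no batch, and the number of arrays limits the precision. Probe sets with 1 gene symbol (28898; 551 have several and 15692 none) were named through the platform annotation, updated to RefSeq GRCm38.p6. Of the control probe sets of the array (104), 9 were called.

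The named genes were the 20 largest positive and 20 largest negative called differences without overlap, up to 4 genes with the smallest p of each of 44 gene lists, and all genes of the locus and known-allele lists, with list genes read from the probe set with the highest mean over all arrays. Members and lists were chosen with earlier results of these data known. Lists were described by counts and medians and not tested. Exact permutation tests over the 3003 regroupings of the 14 mice (two-sided, smallest p 0.000333) were also computed for single genes. CBA/J was compared with C3H/HeJ alone, and A/J, BALB/cJ and DBA/2J as the mean of 3 strain means. The procedure was tested on simulated data, and promoters came from RefSeq.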

Additional observations from a re-analysis of the deposited data

Results flagged for a closer look

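Among the named genes, 10 of the 256 groups of mice that were examined held 1 mouse far from the rest by Dixon's ratio; chance gives about 1 in 20 such groups. C3H/HeJ mouse 4 had a Per3 signal of 6.27 where the next lowest mouse of its strain had 7.06, and a Clock signal of 7.61 where the next highest had 7.25. C3H/HeJ mouse 2 was high for Ifi202b, a DNA-binding interferon-induced gene (5.10, next 3.41), and low for Cpt1a (6.95, next 7.37). Mouse 3 of C3H/HeJ was high for Dtwd1 (6.50, next 6.22). In C57BL/6J, mouse 1 was high for Bco2 (4.23, next 3.67) and Cxcl10 (3.26, next 2.96), and mouse 5 was low for 1110032A03Rik (9.52, next 9.79). Mouse 2 of C57BL/6J was low for Iigp1 (7.19, next 8.11), and mouse 5 of C3H/HeJ was high for C1s1 (8.39, next 8.12).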

How the results depend on the processing

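No paired analysis was possible because the mice were numbered within a strain only to name them. The count of 3180 called probe sets became 1413 with brown and white adipocyte signals as covariates, 588 with the contractile signal and 948 with the nerve signal as a covariate. It was 2092 without C57BL/6J mice 1 and 2, 1547 with a log2 difference of at least 0.5 required, and 104 without the arrays with RNA of other tissue, which left 5 C3H/HeJ mice and 1 C57BL/6J mouse assumed to vary like the others. Leaving out 1 mouse gave 2166 (without C57BL/6J mouse 2) to 3210 (without C3H/HeJ mouse 2). Against CBA/J, the fit of all arrays called 756 in place of 334, and leaving out 1 mouse gave 134 to 425. Against A/J, BALB/cJ and DBA/2J leaving out 1 mouse gave 1674 (without C3H/HeJ mouse 8) to 3257 (without C3H/HeJ mouse 2). The contractile and nerve covariates and the fits without pairs of mice were chosen after seeing the data.

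With the contractile signal, which holds some of these genes itself, as covariate, the sign turned for Myh11 (-0.14), Itga8 (-0.59), Synpo2 (-0.017), Myl9 (-0.065) and Ltbp1 (-0.073). Other probe sets had the opposite sign for H2-D1 (-0.74 against the 4.52 set; 0.31, 4.52, 0.0074 and 0.37 against the -0.74 set), Pdxdc1 (-0.43, -1.11), Tspan18 (-0.94), Ints6 (-0.092), Ncam1 (-0.077, -0.022, -0.00024), Tpm2 (-0.21), Ddah1 (-0.045), Ifi203 (-0.048), Per3 (-0.011), H2-Ob (-0.0031), Ece1 (-0.060), H2-K1 (0.12), Npas2 (0.14), Ccl27a (0.063), Calr3 (0.013), E2f6 (0.23) and Smim10l1 (0.13). The causes were not tested. Of 113 named and called probe sets 80 were called in all 14 comparisons that left out 1 mouse, and 33 lost the call in 1 to 11 of them, with a highest adjusted p (limma) between 0.0525 and 0.105: Cma1, Dbh, Ddah1, Dpt, Hsph1, Npc2, Snap25, Cpt2, Eci2, Gpx3, Itga8, Th, Atf3, Eng, Iigp1, Nr1h3, Nsdhl, Per3, C1s1, H2-Ob, Ltbp1, Egfl7, Gch1, Eln, Esam, Fbln5, Adamts5, Decr1, Entpd4, Lss, Npc1, Cxcl10 and Rela.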
